A study of Homo sapiens with 9 samples.

Results

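The 10 genes described here make, control and break down polyamines, and their mRNA was measured by sequencing in 3 kidney cell lines. They are *ODC1*, *AMD1*, *SRM*, *SMS*, *MAT2A*, *OAZ1*, *AZIN1*, *SAT1*, *PAOX* and *SMOX*, taken as a named list and matched by NCBI gene identifier to the deposited counts. All 10 were found among the 28395 genes of the table, and all 10 had enough reads to be tested. HK2 is a parental line of normal kidney proximal tubule cells, immortalized with papillomavirus genes. 786-O is a parental line of clear cell renal cell carcinoma (ccRCC), the commonest kidney cancer, and 786-M1A is a metastatic derivative selected from 786-O. All cells were untreated and stably kept in Plasmax, a medium with nutrients at levels close to those of human plasma. Each line gave 3 libraries, so that normal, cancer and metastatic state were represented by 1 line each and cannot be told apart from other differences between these lines. The labels call the libraries replicates and the methods describe replicate dishes, so p-values measure the spread between dishes of a line, which may be technical.

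Polyamines (putrescine, spermidine and spermine) are small, positively charged amines that bind nucleic acids and are needed for growth. Ornithine decarboxylase, the product of *ODC1*, makes putrescine. The enzyme encoded by *AMD1* decarboxylates S-adenosylmethionine, which *MAT2A* supplies, and the spermidine and spermine synthases (*SRM* and *SMS*) add the resulting aminopropyl group. Antizyme (*OAZ1*) binds ornithine decarboxylase and sends it to the proteasome, and the antizyme inhibitor (*AZIN1*) is an inactive relative of the enzyme that captures antizyme. In breakdown, *SAT1* acetylates spermidine and spermine, *PAOX* oxidizes the acetylated forms, and *SMOX* oxidizes spermine directly. Growing and tumor tissues are known for high ornithine decarboxylase activity, and several of these genes are also controlled through translation or protein decay, which mRNA counts do not show.

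Counted reads per library ranged from 30212291 to 45362428. Values are given as CPM, counts-per-million after scaling of the libraries by edgeR's TMM factors, and mean values carry the SD of 3 libraries. Differences are given as log2FC, the fitted log2 ratio of the named line to the line it is set against, with its standard error (SE). CPM are shares of the mRNA of a culture, so more mRNA per cell of all kinds would not be seen, and fewer cells with an mRNA cannot be told apart from less of it per cell. Of 12 listed markers of proximal tubule, 3 reached 1 CPM in every HK2 library, and 4 did so in 786-O and in 786-M1A. The 3 in HK2 were *PAX8* (mean 167 CPM), *GGT1* (107 CPM) and *ANPEP* (1.74 CPM). The listed genes *LRP2*, *SLC22A6* and *SLC22A8* had 0 counts in all 9 libraries. Of 6 listed genes that HIF induces in ccRCC, 5 were found in the counts, and *NDUFA4L2* was not matched. In HK2, 786-O and 786-M1A, *VEGFA* was at 19.3, 162 and 331 CPM and *SLC2A1* at 193, 809 and 1060 CPM. In the same order *EGLN3* was at 1.72, 49.9 and 128 CPM, whereas *ANGPTL4* was at 2.57, 3.11 and 3.26 CPM. *CA9* did not exceed 0.0707 CPM in any library. The leukocyte genes *PTPRC* and *CD3E* were at 0 in every library, and 2 to 3 of 10 markers of other cell types reached 1 CPM throughout, *CD68* and *COL1A1* in each line. These 10 markers summed to 98.5 to 111 CPM in HK2 libraries, 291 to 357 CPM in those of 786-O and 54.4 to 59.6 CPM in those of 786-M1A. Most of each sum came from *COL1A1* (means of 53.5, 291 and 16.5 CPM in that order) and *CD68* (50.8, 26.9 and 36.1 CPM). The part of these markers in the results was not tested.

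In 786-O compared with HK2, *SAT1* fell most among the 10 genes and *AZIN1* and *OAZ1* rose most. Of the 10 genes, 9 differed at an adjusted p-value under 0.05 (edgeR's quasi-likelihood test, Benjamini-Hochberg adjustment over the 12695 genes tested), 5 higher and 4 lower. The same was true of 84.2% of all genes tested, 41.7% being higher and 42.5% lower, so this count is near the background of these 2 lines. In 786-M1A against HK2, 9 of the 10 also passed, 5 higher and 4 lower, beside 85.0% of all genes, 42.0% higher and 42.9% lower. Both comparisons share the HK2 libraries. Between 786-M1A and 786-O, 5 of the 10 passed, 4 higher and 1 lower, beside 56.2% of all genes, with 29.0% higher and 27.1% lower.

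Changes were small in size for most of these genes. The median absolute log2FC of the 10 genes was 0.47 in 786-O against HK2, where all genes also had 0.47. It was 0.38 in 786-M1A against HK2 (all genes 0.51) and 0.19 between 786-M1A and 786-O (all genes 0.17). Of the 10, *SAT1* alone reached 2-fold with an adjusted p under 0.05, and it did so in each comparison with HK2, where 22.3% (786-O) and 25.4% (786-M1A) of all genes did. Between 786-M1A and 786-O, 6.55% of all genes and 0 of the 10 reached that size in edgeR, although 5 of the 10 passed the adjusted p.

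**Figure D1:**
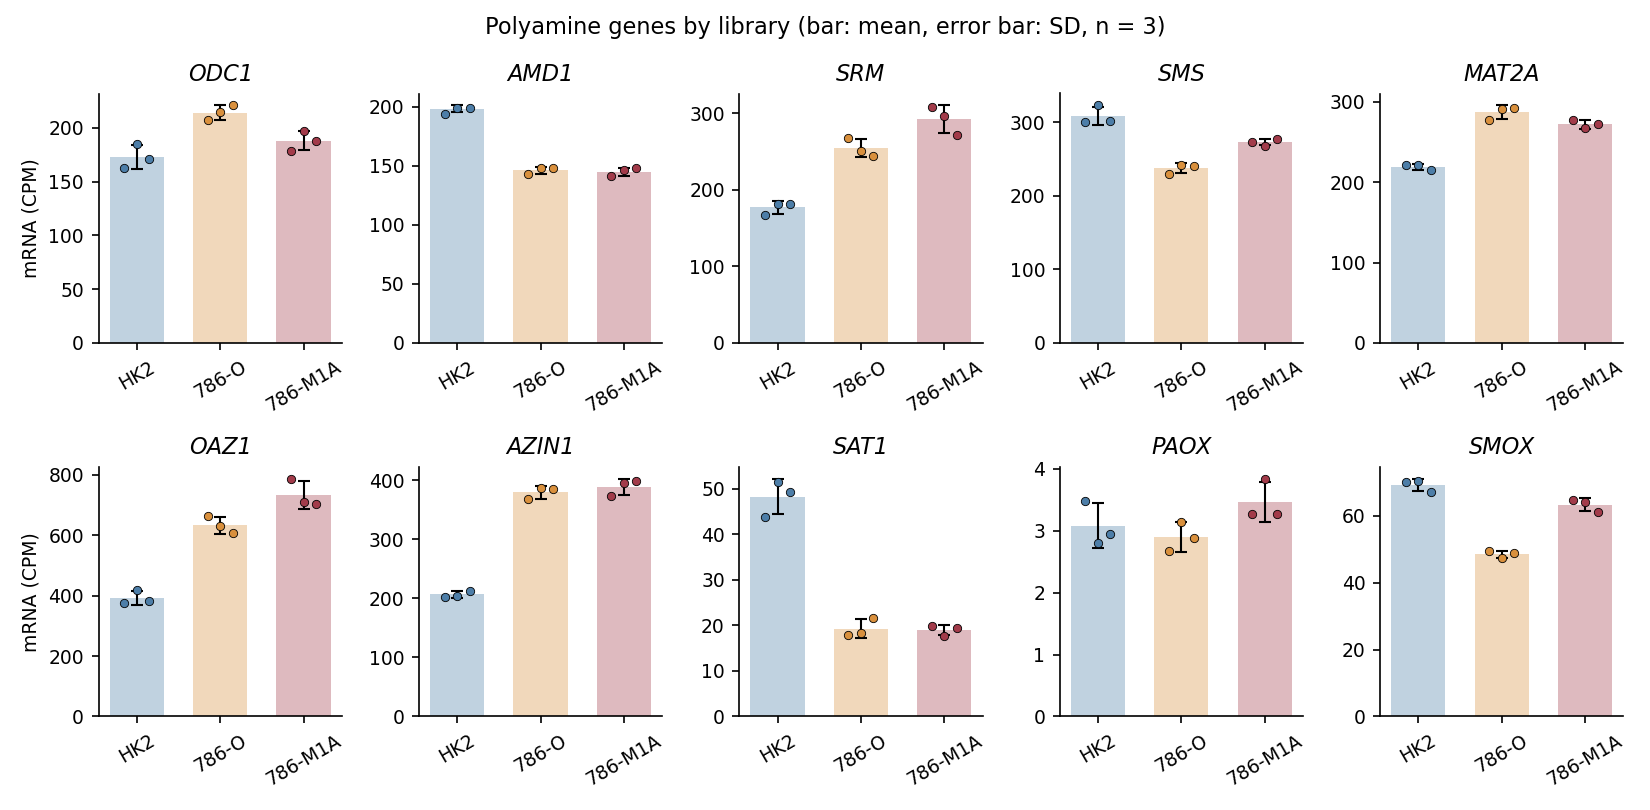
mRNA of the 10 polyamine genes in CPM (vertical axes, each starting at 0) in the 3 libraries of HK2, 786-O and 786-M1A; dots are libraries, bars are means and error bars are the SD. *SAT1* falls from 48.3 CPM in HK2 to 19.3 and 19.0 CPM in the cancer lines, *AZIN1* rises from 207 to 380 and 389 CPM, and the libraries of *PAOX* lie between 2.67 and 3.84 CPM in all lines.

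The pathway starts with *ODC1* (NCBI gene 4953, chromosome 2 of GRCh38, 10439968 to 10448327), whose enzyme is the gatekeeper of putrescine synthesis. Its mRNA was at 163, 185 and 171 CPM in the HK2 libraries, at 207, 215 and 221 CPM in 786-O and at 179, 197 and 188 CPM in 786-M1A. The 786-O libraries were above all others, and those of 786-M1A overlapped with HK2. *ODC1* rose in 786-O relative to HK2 with a log2FC of 0.31 (SE 0.046, edgeR adjusted p = 2.93e-06) and was lower in 786-M1A than in 786-O (-0.19, SE 0.046, adjusted p = 0.0015). Its difference between 786-M1A and HK2 was 0.12 (SE 0.046, adjusted p = 0.0214). That call was lost under upper-quartile scaling (adjusted p = 0.215) and without HK2 replicate 1 (0.142), HK2 replicate 3 (0.0635) or 786-M1A replicate 2 (0.129).

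*SRM* (NCBI gene 6723, chromosome 1, 11054584 to 11060020), which makes spermidine from putrescine, rose at each step from HK2 to 786-O to 786-M1A. The HK2 libraries had 167, 181 and 182 CPM, the 786-O libraries 267, 250 and 244 CPM, and the 786-M1A libraries 308, 296 and 272 CPM. No library of a line overlapped with those of another. The log2FC was 0.52 in 786-O against HK2 (SE 0.048, adjusted p = 4.67e-09), 0.72 in 786-M1A against HK2 (SE 0.048, adjusted p = 2.71e-11) and 0.20 between 786-M1A and 786-O (SE 0.047, adjusted p = 0.00127).

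Sequences before annotated start sites are shown for *ODC1* and *SRM*, which both rose in 786-O, because they hold the E-box CACGTG, the letters bound by MYC and related factors, and for *SAT1*, the gene with the largest difference, which does not hold it. They come from RefSeq windows on GRCh38.p14 of 250 bases before to 50 bases after a start and are cut here to the longest stretch outside annotated exons. The E-box is in capitals. The *ODC1* stretch lies on the minus strand at chr2:10448015-10448120, within the gene's introns and before a downstream start, with the E-box beginning 29 bases before that start. That of *SRM*, also on the minus strand, is chr1:11060021-11060268, with the E-box beginning 199 bases before the start. That of *SAT1* is chrX:23782957-23783172 on the plus strand.
ODC1: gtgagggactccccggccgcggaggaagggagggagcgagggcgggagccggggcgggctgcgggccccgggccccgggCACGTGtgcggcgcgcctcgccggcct
SRM: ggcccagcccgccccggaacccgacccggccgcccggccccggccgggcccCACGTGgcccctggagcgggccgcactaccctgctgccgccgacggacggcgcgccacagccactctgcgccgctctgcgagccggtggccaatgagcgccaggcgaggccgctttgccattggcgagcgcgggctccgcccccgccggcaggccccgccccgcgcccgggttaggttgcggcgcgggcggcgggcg
SAT1: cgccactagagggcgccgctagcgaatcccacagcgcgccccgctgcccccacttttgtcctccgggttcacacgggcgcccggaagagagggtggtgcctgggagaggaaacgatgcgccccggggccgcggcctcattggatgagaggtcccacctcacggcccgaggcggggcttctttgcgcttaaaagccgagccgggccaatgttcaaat
CACGTG reads the same on both strands. In the whole 300-base windows it was present for 2 of the 7 genes searched, *ODC1* and *SRM*, and not for *AMD1*, *SMS*, *MAT2A*, *OAZ1* and *SAT1*. *ODC1* has 2 windows, and that of the downstream start holds the motif 2 times. Of all 35116 windows, 7.26% held the motif, and of the genes tested with a window, 12.9% did. *AZIN1*, *PAOX* and *SMOX* were not searched here. The presence of these letters is a description of sequence and no measurement of binding.

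*SMS* (NCBI gene 6611, chromosome X, 21940709 to 21994837), which turns spermidine into spermine, moved in the other direction from *SRM* relative to HK2. It was at 301, 323 and 302 CPM in HK2, at 230, 242 and 241 CPM in 786-O and at 273, 268 and 277 CPM in 786-M1A. The libraries of the 3 lines did not overlap, with 786-O lowest, 786-M1A between and HK2 highest. Against HK2 the log2FC was -0.38 in 786-O (adjusted p = 6.34e-09) and -0.18 in 786-M1A (adjusted p = 1.68e-04), and 786-M1A was above 786-O by 0.20 (adjusted p = 1.21e-04), with SEs of 0.037.

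*AMD1* (NCBI gene 262, chromosome 6, 110874770 to 110898879), whose enzyme provides the aminopropyl donor for both synthases, fell in both cancer lines. It was at 194, 199 and 199 CPM in HK2, at 143, 148 and 148 CPM in 786-O and at 141, 146 and 148 CPM in 786-M1A. All cancer libraries were below all HK2 libraries, and the 2 cancer lines overlapped. The log2FC was -0.43 in 786-O and -0.45 in 786-M1A against HK2 (SEs 0.036, adjusted p = 2.78e-10 and 1.45e-10) and -0.02 between the cancer lines (SE 0.036, adjusted p = 0.733). GENCODE lists 4 *AMD1* pseudogenes, 3 of *SRM* and 1 each of *SMS*, *MAT2A* and *OAZ1*. None of these was found by its GENCODE name among the genes of the counts, and the assignment of reads shared with them is not known.

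*MAT2A* (NCBI gene 4144, chromosome 2, 85539168 to 85545281), the S-adenosylmethionine synthetase of most tissues outside the liver, had 222, 221 and 215 CPM in HK2. In 786-O it had 277, 291 and 292 CPM, and in 786-M1A 278, 267 and 272 CPM. Both cancer lines were above HK2 without overlap, and they overlapped with each other. *MAT2A* rose by a log2FC of 0.39 in 786-O (SE 0.036, adjusted p = 1.97e-09) and of 0.31 in 786-M1A (SE 0.036, adjusted p = 5.48e-08). The difference between 786-M1A and 786-O was -0.07 (SE 0.035, adjusted p = 0.0814), and it came under the threshold with upper-quartile scaling (0.0441) or without HK2 replicate 2 (0.0471), 786-O replicate 1 (0.0389) or 786-M1A replicate 1 (0.0496). *MAT2A* shares 562 bases of exons with *GGCX* on the opposite strand, and as the sources used here do not give the strand setting of the counting, its counts are uncertain to that extent.

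Both controllers of ornithine decarboxylase rose in the cancer lines. *OAZ1* (NCBI gene 4946, chromosome 19, 2269509 to 2273490), the antizyme made through a frameshift that polyamines promote, was at 377, 420 and 383 CPM in HK2. It reached 664, 631 and 608 CPM in 786-O and 787, 712 and 703 CPM in 786-M1A. The lines were fully separated, in the order HK2, 786-O, 786-M1A. The log2FC against HK2 was 0.69 in 786-O (SE 0.049, adjusted p = 4.45e-10) and 0.90 in 786-M1A (SE 0.049, adjusted p = 8.79e-12), and between 786-M1A and 786-O it was 0.21 (SE 0.049, adjusted p = 0.00145). *AZIN1* (NCBI gene 51582, chromosome 8, 102826111 to 102893864) had 203, 205 and 213 CPM in HK2, 368, 388 and 385 CPM in 786-O and 374, 395 and 399 CPM in 786-M1A. All 6 cancer libraries were above the HK2 libraries, and 786-O and 786-M1A overlapped. *AZIN1* rose 1.84-fold in 786-O (log2FC 0.88, SE 0.038, adjusted p = 4.15e-15) and 1.88-fold in 786-M1A (0.91, SE 0.038, adjusted p = 1.88e-15). Between the cancer lines the log2FC of *AZIN1* was 0.03 (SE 0.037, adjusted p = 0.454). *OAZ1* shares 236 exon bases with *JSRP1* on the opposite strand, which had a mean of 0.556 counts, and 220 with a same-strand gene not analysed here. *AZIN1* shares 159 with another such gene, which leaves some doubt about both levels.

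Of the breakdown genes, *SAT1* and *SMOX* fell in both cancer lines and *PAOX* did not pass the test in any comparison. *SAT1* (NCBI gene 6303, chromosome X, 23783173 to 23786210), the acetyltransferase that opens the way back from spermine and spermidine, was at 43.9, 51.6 and 49.4 CPM in HK2. It was at 17.8, 18.4 and 21.7 CPM in 786-O and at 19.8, 17.7 and 19.5 CPM in 786-M1A, on 678 to 921 counts per cancer library. Every cancer library was below 22 CPM and every HK2 library above 43 CPM. *SAT1* fell by 60.1% in 786-O (log2FC -1.32, SE 0.073, adjusted p = 1.62e-11) and by 60.7% in 786-M1A (-1.35, SE 0.074, adjusted p = 1.36e-11). Between the cancer lines the log2FC was -0.02 (SE 0.08, adjusted p = 0.822). Of all genes tested, 84.2% differed less between 786-O and HK2 than *SAT1* did, and 82.1% differed less between 786-M1A and HK2. *SAT1* shares 90 exon bases with a same-strand gene not analysed here.

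*SMOX* (NCBI gene 54498, chromosome 20, 4120980 to 4187747), the oxidase that returns spermine to spermidine and releases hydrogen peroxide, was lowest in 786-O. The HK2 libraries had 70.0, 70.3 and 67.1 CPM, the 786-O libraries 49.3, 47.3 and 48.9 CPM, and the 786-M1A libraries 64.6, 64.1 and 61.2 CPM. The lines did not overlap, with 786-M1A between 786-O and HK2. *SMOX* had a log2FC of -0.51 in 786-O (SE 0.042, adjusted p = 2.74e-10) and of -0.13 in 786-M1A (SE 0.041, adjusted p = 0.00769) against HK2. Relative to 786-O, 786-M1A had more *SMOX* by a log2FC of 0.38 (SE 0.042, adjusted p = 1.13e-07), the largest difference of the 10 genes between the cancer lines. *PAOX* (NCBI gene 196743, chromosome 10, 133379261 to 133391694), a peroxisomal oxidase, was the rarest of the 10 mRNAs, with 109 to 147 counts per library. It was at 3.49, 2.80 and 2.95 CPM in HK2, at 2.67, 3.15 and 2.88 CPM in 786-O and at 3.28, 3.84 and 3.28 CPM in 786-M1A. Its log2FC values were -0.08 (SE 0.12, adjusted p = 0.547) and 0.19 (SE 0.118, adjusted p = 0.148) against HK2 and 0.26 between 786-M1A and 786-O (SE 0.118, adjusted p = 0.0631). The last of these came to an adjusted p of 0.048 without 786-O replicate 2, and at this depth differences of this size were not resolved. *PAOX* shares 1373 of its 2250 exon bases with another annotated transcript unit of the same strand, which leaves its level and its rank uncertain.

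**Figure D2:**
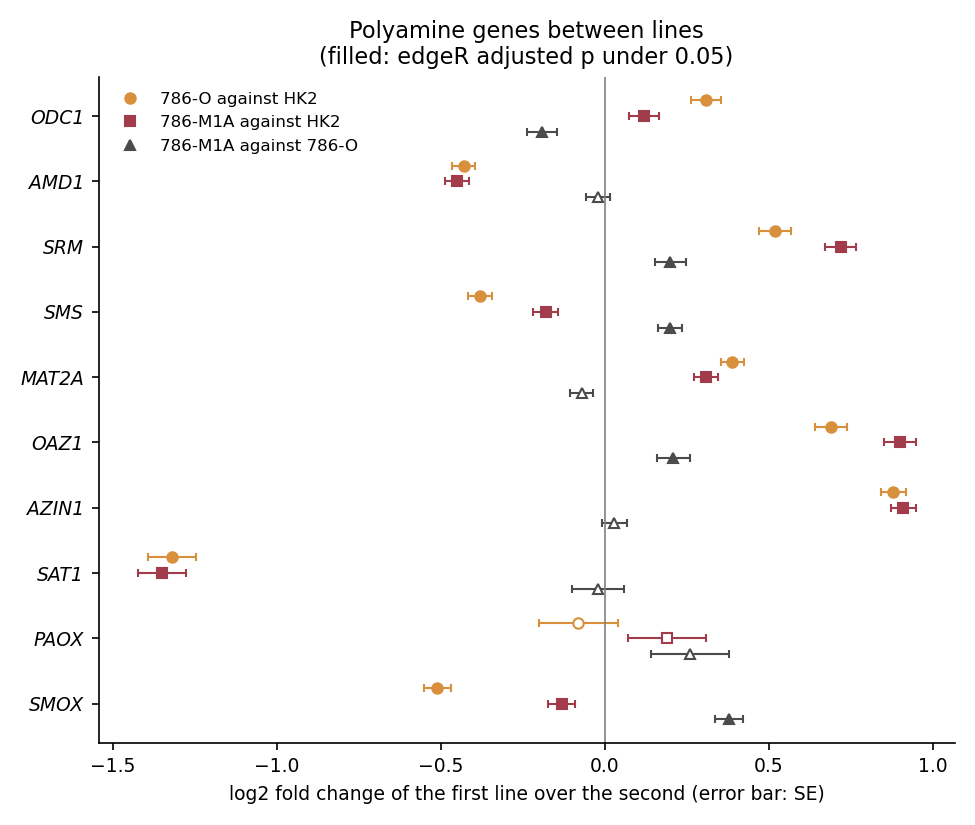
Log2FC (horizontal axis) of each of the 10 genes in 786-O against HK2 (circles), 786-M1A against HK2 (squares) and 786-M1A against 786-O (triangles); error bars are SEs and filled symbols passed an adjusted p of 0.05 in edgeR. *SAT1* lies at -1.32 and -1.35 against HK2 and at -0.02 between the cancer lines, whereas *SMOX* lies at 0.38 between them.

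For 9 of the 10 genes in 786-O and 8 of the 10 in 786-M1A, no library overlapped with HK2, and between the cancer lines this held for 6 of the 10. Of all genes tested, 85.5%, 85.0% and 61.7% were separated in the same way. An exact two-sided permutation test of a gene without overlap gives p = 0.1, the smallest that 3 libraries against 3 allow.

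Ratios of pairs of these mRNAs within a library do not depend on the scaling of libraries. They were compared as log2 ratios of CPM, without correction for gene length, so that only differences between lines can be read from them. *ODC1* relative to its inhibitor *OAZ1* was at -1.21, -1.18 and -1.16 in HK2, at -1.68, -1.55 and -1.46 in 786-O and at -2.14, -1.85 and -1.90 in 786-M1A. The ratio fell at each step without overlap, by 0.38 from HK2 to 786-O (SE 0.0659) and by 0.40 from 786-O to 786-M1A (SE 0.108). From HK2 to 786-M1A it fell by 0.78 (SE 0.0883), which leaves a ratio 0.583 times that of HK2. Each of these differences had p = 0.1 in the exact two-sided permutation test, the smallest possible, and 0.18 after Benjamini-Hochberg adjustment over the 9 comparisons of ratios, so none could pass the threshold.

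The ratio of *AZIN1* to *OAZ1*, the inhibitor's inhibitor over the inhibitor, overlapped between all pairs of lines. Its mean was -0.92 ± 0.0991 (SD, n = 3) in HK2, while 786-O had -0.74 ± 0.102 and 786-M1A -0.91 ± 0.141, with exact permutation p of 0.2, 0.9 and 0.3 for the 3 comparisons in the order above. The ratio of *SRM* to *SMS* was -0.85, -0.83 and -0.73 in HK2, 0.22, 0.04 and 0.02 in 786-O and 0.17, 0.14 and -0.03 in 786-M1A. It was higher by 0.90 in each cancer line than in HK2 (SEs 0.0705 and 0.071, exact permutation p = 0.1, adjusted 0.18), a 1.86-fold and a 1.87-fold difference. The cancer lines overlapped (difference 0.00, SE 0.0865, exact permutation p = 1).

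**Figure D3:**
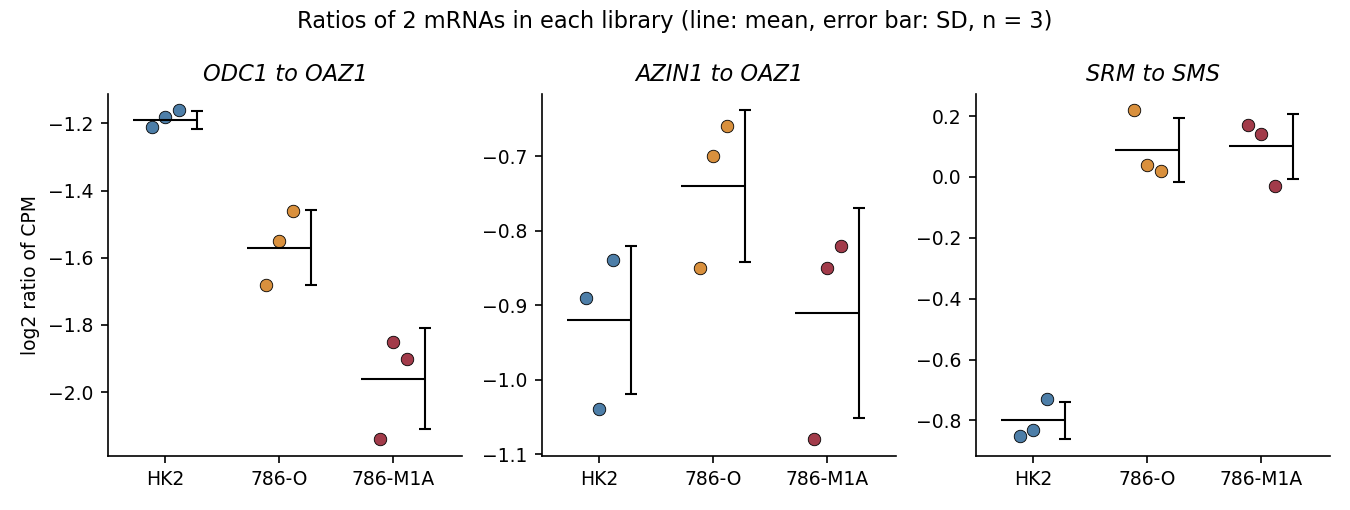
Log2 ratio of CPM (vertical axes, each with its own range) of *ODC1* to *OAZ1*, *AZIN1* to *OAZ1* and *SRM* to *SMS* in the 3 libraries of each line; dots are libraries, horizontal lines are means and error bars are the SD. The ratio of *ODC1* to *OAZ1* has means of -1.19, -1.57 and -1.96 in HK2, 786-O and 786-M1A, and that of *SRM* to *SMS* goes from -0.80 in HK2 to 0.09 and 0.10 in the cancer lines.

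To compare levels between genes, CPM were divided by the length in kilobases of all annotated exons of a gene. On this scale *OAZ1* had the highest level of the 10 in 786-O (185 ± 8.25 CPM per kb) and 786-M1A (214 ± 13.5), followed by *SRM* (134 ± 6.11 and 154 ± 9.55) and *SMS* (112 ± 3.23 and 128 ± 2.07). In HK2, *SMS* came first (145 ± 5.72), then *OAZ1* (115 ± 6.68) and *SRM* (93.3 ± 4.42). *ODC1*, *MAT2A* and *AZIN1* held the next places in each line. In 786-O they lay at 64.8 ± 2.10, 63.9 ± 1.92 and 62.0 ± 1.77 CPM per kb, neighbours that do not differ beyond their spread. *PAOX* was last in each line, at 1.29 to 1.54 CPM per kb, and *SAT1* was last but for *PAOX* in the cancer lines, at 7.78 ± 0.845 and 7.66 ± 0.457. With the length of the canonical transcript alone, *OAZ1* was first in all lines (343 CPM per kb in HK2), while *SMS* stayed above *SRM* in HK2 (181 and 140) and *SRM* above *SMS* in 786-O (201 and 140) and 786-M1A (232 and 160). *AMD1* came before *SMOX* with the canonical length and after it with all exons in each line, and in HK2 it then also passed *AZIN1* (57.7 and 49.3 CPM per kb).

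A list of 33 further genes of polyamine metabolism covers ornithine supply, the other antizymes and antizyme inhibitor, the methionine cycle and salvage, acetylation and oxidation, hypusine formation and transport. Of these, 26 had enough reads to be tested, and *ARG1*, *OAZ3*, *MAT1A*, *SATL1*, *AOC1*, *SLC22A3* and *SLC47A1* did not. In 786-O against HK2, 20 of the 26 passed the threshold, 9 higher and 11 lower, beside 84.2% of all genes, and the median log2FC was -0.11 (all genes -0.01). In 786-M1A against HK2, 23 passed, 10 higher and 13 lower, beside 85.0% of all genes, with a median of -0.13 (all genes -0.01). Between the cancer lines 11 passed, 5 higher and 6 lower, beside 56.2% of all genes, with a median of 0.00 (all genes 0.01). None of these counts is read as particular to the list.

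In the group listed as ornithine supply, mRNA fell in both cancer lines for *ARG2*, the mitochondrial arginase that makes ornithine. It also fell for *AGMAT*, a mitochondrial enzyme named for the cleavage of agmatine, not for making ornithine. The supply of ornithine itself is not measured by these counts. *ARG2* was at 28.6, 27.9 and 28.2 CPM in HK2, at 5.19, 5.08 and 6.15 CPM in 786-O and at 6.54, 6.48 and 6.21 CPM in 786-M1A. Its log2FC was -2.36 in 786-O and -2.14 in 786-M1A against HK2 (SEs 0.069, adjusted p = 5.19e-18 and 2.30e-17). *AGMAT* had 430 to 698 counts per library in HK2 (14.6 ± 0.695 CPM), 1 to 5 counts in 786-O (0.0806 ± 0.0495 CPM) and 11 to 19 counts in 786-M1A (0.408 ± 0.0959 CPM). Its fitted log2FC was -7.45 in 786-O and -5.14 in 786-M1A against HK2 (adjusted p = 2.02e-19 and 1.20e-18) and 2.31 between 786-M1A and 786-O (SE 0.423, adjusted p = 8.98e-05). A library with 1 count is below the 3 counts taken here as the floor (0.0647 to 0.0961 CPM), so the size of the *AGMAT* values is loosely set. *ARG2* shares 904 of its 2284 exon bases with *VTI1B* on the opposite strand, which had a mean of 1163 counts. *AGMAT* shares 117 with *DNAJC16*, also on the opposite strand. As the strand setting of the counting is not known, both levels are uncertain to that extent. *OAT*, which links ornithine to glutamate metabolism, differed little, by a log2FC of 0.18 in 786-O (adjusted p = 7.10e-05) and 0.12 in 786-M1A (adjusted p = 0.00467).

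The genes of hypusine formation, in which spermidine is used to modify the translation factor eIF5A, rose except for the factor's main gene. *DHPS* and *DOHH*, the enzymes of both steps, were at 25.0 and 15.1 CPM in HK2, at 50.9 and 32.1 CPM in 786-O and at 54.0 and 29.9 CPM in 786-M1A. *DHPS* had a log2FC of 1.02 in 786-O and 1.11 in 786-M1A (adjusted p = 4.52e-15 and 9.98e-16), and *DOHH* of 1.09 and 0.98 (adjusted p = 2.20e-08 and 8.18e-08). *DHPS* shares 116 exon bases with *WDR83* on the opposite strand and 1157 of its 2984 exon bases with a same-strand gene not analysed here. *EIF5A2*, the rarer of both factor genes, was at 26.9, 26.5 and 28.2 CPM in HK2, at 95.0, 98.9 and 97.2 CPM in 786-O and at 91.6, 95.7 and 93.9 CPM in 786-M1A. It rose by a log2FC of 1.83 and 1.78 (adjusted p = 1.08e-19 and 1.63e-19), whereas *EIF5A* was lower than in HK2, by -0.34 and -0.20 (adjusted p = 7.31e-08 and 7.19e-05).

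Among transport genes, *SLC18B1*, a vesicular polyamine transporter, fell at each step. It was at 14.9, 17.3 and 15.6 CPM in HK2, at 6.18, 5.29 and 6.69 CPM in 786-O and at 2.06, 1.91 and 2.04 CPM in 786-M1A. The log2FC was -1.39 in 786-O and -3.00 in 786-M1A against HK2 (adjusted p = 1.24e-12 and 7.84e-17) and -1.60 between 786-M1A and 786-O (SE 0.118, adjusted p = 2.69e-10). *SLC3A2*, the heavy chain of several amino acid transporters, rose from 84.5 CPM in HK2 to 183 in 786-O and 215 in 786-M1A (log2FC 1.11 and 1.35, adjusted p = 2.53e-16 and 7.56e-18). *ATP13A3*, a P5B-type polyamine transporter, was at 400 CPM in HK2 and at 352 and 289 CPM in 786-O and 786-M1A, and *ATP13A2*, its lysosomal relative, at 77.3, 81.0 and 94.2 CPM. *ATP13A3* was lower in 786-M1A than in 786-O by a log2FC of -0.29 (adjusted p = 8.81e-05) and *ATP13A2* higher by 0.22 (adjusted p = 6.64e-04).

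Of the 5 methionine salvage genes, which recycle the methylthioadenosine left by both synthases, 0 were higher and 3 lower than in HK2 in 786-O, and 0 higher and 4 lower in 786-M1A. Of all genes tested, 41.7% were higher and 42.5% lower in 786-O, and 42.0% and 42.9% in 786-M1A. *MTAP*, the enzyme of the opening step, was at 52.9 CPM in HK2 and at 42.7 and 42.8 CPM in 786-O and 786-M1A (log2FC -0.31 and -0.30, adjusted p = 7.29e-06 and 1.01e-05). *ADI1* had log2FC values of -0.36 and -0.40 (adjusted p = 1.01e-07 and 2.09e-08). Of 6 genes listed under the methionine cycle, 3 were higher and 1 lower than in HK2 in 786-O, and 3 higher and 2 lower in 786-M1A. For the higher ones these shares were near those of all genes. The higher ones include *AHCYL1*, a relative of the cycle gene *AHCY*, with log2FC values of only 0.10 and 0.15. *MAT2B*, the regulatory partner of *MAT2A*, was among those higher (0.58 and 0.59, adjusted p = 4.34e-11 and 3.58e-11). *MTR*, methionine synthase, was lower than in HK2 in 786-O (-0.20, adjusted p = 0.0238) and in 786-M1A (-0.57, adjusted p = 8.89e-06), and lower in 786-M1A than in 786-O (-0.38, adjusted p = 9.09e-04). The *MTR* libraries of 786-O and HK2 overlapped. *GNMT*, a glycine methyltransferase, was lower in 786-M1A than in HK2 (-0.42, SE 0.147, adjusted p = 0.0115). This rests on few reads, 59 to 77 counts per library in 786-M1A and 89 to 99 in HK2. *OAZ2*, a further antizyme, rose in 786-O (0.44, adjusted p = 8.26e-09) and was lower in 786-M1A than in 786-O (-0.29, adjusted p = 9.54e-06). *SAT2*, a relative of *SAT1*, was lower in both cancer lines than in HK2 (-0.29 and -0.28, adjusted p = 8.79e-04 and 0.00153).

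**Figure D4:**
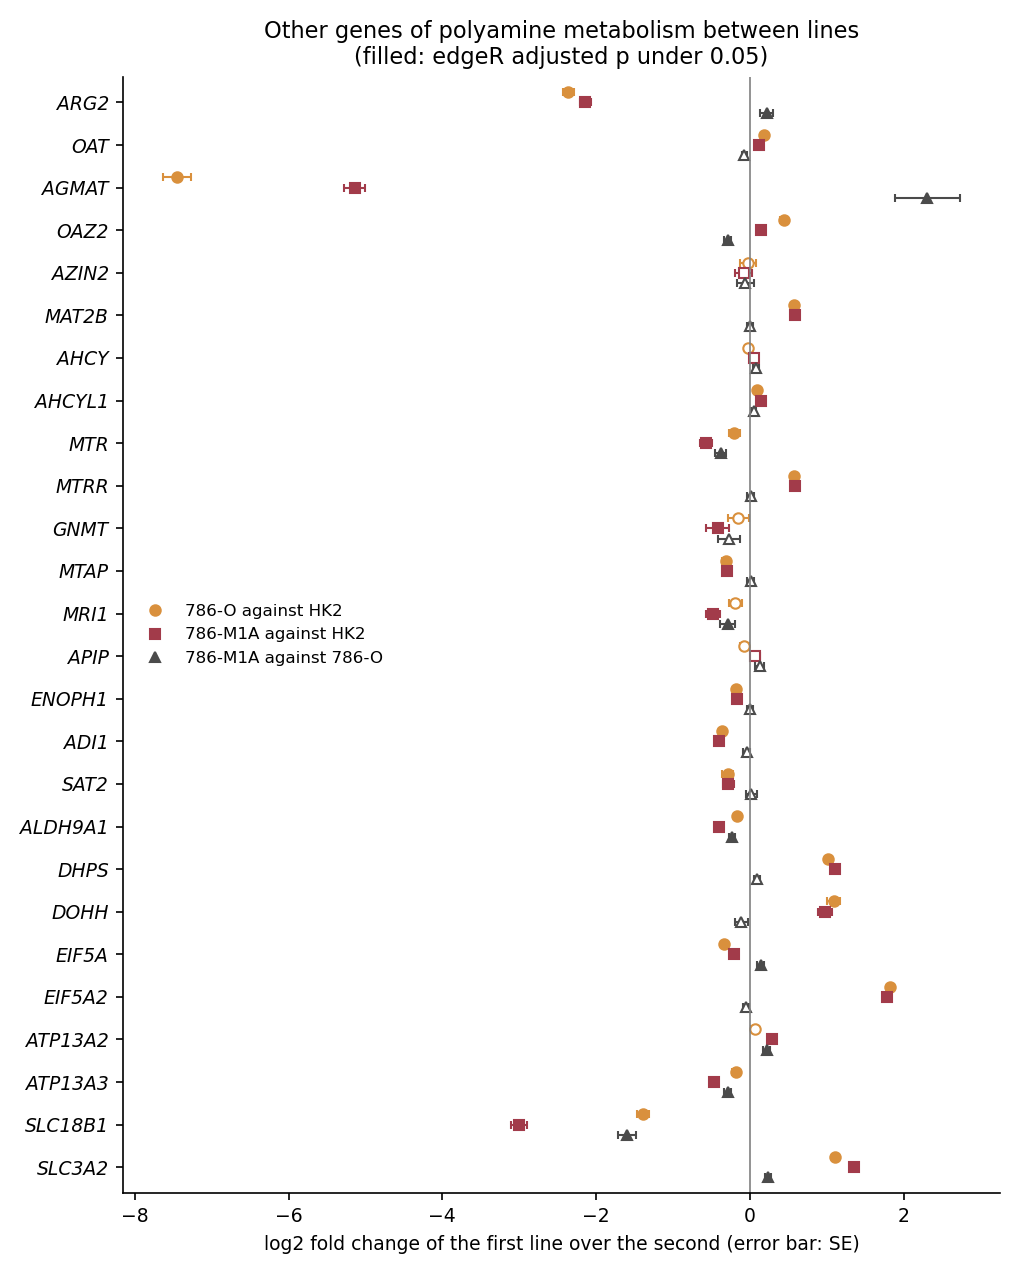
Log2FC (horizontal axis) of the 26 further genes of polyamine metabolism that were tested, in the 3 comparisons; symbols and error bars (SEs) are as for the 10 genes, and filled symbols passed an adjusted p of 0.05 in edgeR. *AGMAT* lies farthest to the left at -7.45 and -5.14 against HK2 and farthest to the right at 2.31 between the cancer lines.

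The genes whose pattern was most like that of *ODC1*, by the root mean square distance of mean-centred log2 CPM over the 9 libraries, were *ITFG1* (0.0351), *SNAPC3* (0.0372) and *KAT14* (0.0405). For *SAT1* they were *RAB13* (0.0733), *MGME1* (0.0839) and *SH3BGRL2* (0.0872), and for *SMOX* *MCM5* (0.0393), *RAP2B* (0.0455) and *PFDN6* (0.0455). With 3 lines, each pattern amounts to 3 levels with little spread. *RAB13*, for example, was at 112 CPM in HK2 and at 45.3 and 43.3 CPM in 786-O and 786-M1A.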

How the data were processed

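RNA was sequenced from 9 libraries, 3 each of HK2, 786-O and 786-M1A, grouped by their labels. The authors prepared TruSeq Stranded mRNA libraries and counted reads on genes with Rsubread (featureCounts) on hg38 (GRCh38). They deposited the counts as whole numbers without normalization; the annotation version and strand setting are not given in the sources used here. No library was identical to another, and all differed by more than sampling noise.

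Counts were scaled with TMM, and genes averaging 50 counts or more over the libraries (12695) were tested with the robust quasi-likelihood model of edgeR 4.0.16 in R 4.3.3, with a coefficient per line and Benjamini-Hochberg adjustment (threshold 0.05). The VSN and limma of the paper were taken up as limma 3.58.1 on median-aligned log2 counts, with 0 counts set to 0.5. Log2 CPM used a prior count of 2. Other alternatives were DESeq2 1.42.0, RLE and upper-quartile scaling, other filters, a fit of 2 lines, a replicate block, and fits lacking each library in turn. The scripts were tested on simulated data.

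Symbols came from RefSeq (27745 of 28395 identifiers matched), and positions, exon lengths and overlaps from GENCODE 44 on GRCh38. The 10 genes and the lists were chosen with earlier results of these data known. Further genes are named where they passed the threshold with at least a 2-fold difference and no overlap, the rest as examples of their group chosen after their values were seen. The nearest 3 genes by pattern were sought for *ODC1*, *SAT1* and *SMOX*. The floor of 3 counts covers counting error only. Other steps ran in Python 3.11.15 (scipy 1.17.1, pandas 2.3.3, numpy 2.4.6, matplotlib 3.10.9).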

Additional observations from a re-analysis of the deposited data

How the results depend on the processing

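The number of the 10 genes past the threshold was 9 in 786-O against HK2, 8 to 9 in 786-M1A against HK2 and 5 to 6 between the cancer lines under all alternatives. Counts for the 33 further genes stayed within 1.5 times their value, though other filters changed which of them were tested. Without a filter, 23, 26 and 12 of the 33 passed in the 3 comparisons, where 20, 23 and 11 had passed in the main fit. Besides the *ODC1*, *MAT2A* and *PAOX* calls given with those genes, no call of the 10 was gained or lost. Small differences changed sign when a library was left out. *AMD1* between the cancer lines ranged from -0.03 to 0.00 (above 0 without 786-M1A replicate 1). *SAT1* between the cancer lines ranged from -0.08 to 0.07, being 0.07 without 786-O replicate 3 and 0.03 without 786-M1A replicate 2. *PAOX* in 786-O against HK2 ranged from -0.14 to 0.00 (above 0 without HK2 replicate 1). The log2 ratio of *AZIN1* to *OAZ1* in 786-M1A against HK2 ranged from -0.04 to 0.09 and that of *SRM* to *SMS* between the cancer lines from -0.04 to 0.06. None of these differences had passed a test. *AGMAT* gave no value with a minimum of 10 counts in every library.

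Replicate numbers are shared across lines by name only. Deviations of same-numbered libraries correlated at -0.0573 to -0.0286 for 786-O and HK2, at -0.167 to 0.0377 for 786-M1A and HK2 and at 0.0739 to 0.215 for the cancer lines, where 6 of 6 libraries correlated best with their own number, a hint from the data and not from the design. With a replicate block 9, 9 and 5 of the 10 genes and 19, 23 and 12 of the further genes passed in the 3 comparisons. Depth limited *PAOX*, *GNMT* and *AGMAT*, and 3 libraries against 3 limited the ratios.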

Other observations

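*SMS* and *SAT1*, which both were lower in the cancer lines than in HK2, lie 1.79 Mb apart on chromosome X. This stretch was singled out after the values were seen. Of the 4 tested genes between them (*PHEX*, *PTCHD1*, *PRDX4* and *ACOT9*), 4 were lower and 0 higher in 786-O than in HK2. Their log2FC spread widely, from -8.36 to -0.10, with a median of -0.70. In 786-M1A against HK2, 3 were lower and 0 higher, with log2FC from -10.96 to -0.08 and a median of -0.97. Of all genes tested, 42.5% and 42.9% were lower in these comparisons. The counts behind the most extreme of these log2FC values are not given here, and their size may be loosely set, as for *AGMAT*. Between 786-M1A and 786-O, 1 was higher and 1 lower. The cause was not tested.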
